A study of Mus musculus with 28 samples.

Results

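The genes described here are 10 genes of the NF-kB pathway, chosen by symbol in the GENCODE M21 annotation: the transcription factor subunits *Nfkb1*, *Nfkb2* and *Rela*, the inhibitors *Nfkbia*, *Nfkbib* and *Nfkbiz*, the IkB kinase complex genes *Chuk*, *Ikbkb* and *Ikbkg*, and the feedback regulator *Tnfaip3*. They were measured by RNA-seq of amygdala micropunches from 28 adult female C57BL/6J mice, purchased at 7 weeks of age and run as 2 batches. The Water Drinking group (4 mice of the first batch, 6 of the second) drank only water over a period of 28 days. The Acute Drinking group (4 and 5 mice) drank water and was offered 20% ethanol beside water once, on day 28, and the Chronic Drinking group (3 and 6 mice) was offered 20% ethanol beside water every other day for 28 days. All mice were housed singly and carried no transgene, and tissue was taken on day 29. Of 49477 genes listed in the tables of both batches, 9 are members, and *Nfkb2* is listed in the table of the second batch alone. A mean of at least 10 counts per mouse was reached by all 9 shared members, as it was by 16266 of the 49477 shared genes.

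NF-kB transcription factors are dimers of Rel proteins that wait in the cytoplasm, bound by inhibitor proteins of the IkB family. Signals from cytokine, Toll-like and other receptors activate the IkB kinase complex, which marks the inhibitor for destruction and frees the dimer to enter the nucleus. *Nfkbia*, which encodes the inhibitor IkB-alpha, and *Tnfaip3*, which encodes the ubiquitin-editing enzyme A20, are themselves targets of NF-kB and so form feedback loops. In brain the pathway is known for inflammatory signalling in microglia, astrocytes and endothelial cells, and it is also present in neurons. Messenger RNA does not show where the protein sits in the cell.

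Since *Nfkbia* and *Tnfaip3* are feedback targets, the promoters of the members were read from the RefSeq promoter table (GRCm38.p6), which gives 250 bases before and 50 after each start. It holds 13 promoters of 7 members. *Nfkb1*, *Nfkbiz* and *Ikbkb* had no entry. The classical NF-kB consensus was searched on both strands, and it was found in 5 of the 13 promoters, which belong to 3 members, *Nfkb2*, *Nfkbia* and *Tnfaip3*, against 8.46% of the 32851 promoters in the table. The first promoter of each of the 3 is shown on the strand of its gene because these are the members whose own promoter holds the pathway's motif, and capitals mark the bases of every consensus match.
Nfkbia: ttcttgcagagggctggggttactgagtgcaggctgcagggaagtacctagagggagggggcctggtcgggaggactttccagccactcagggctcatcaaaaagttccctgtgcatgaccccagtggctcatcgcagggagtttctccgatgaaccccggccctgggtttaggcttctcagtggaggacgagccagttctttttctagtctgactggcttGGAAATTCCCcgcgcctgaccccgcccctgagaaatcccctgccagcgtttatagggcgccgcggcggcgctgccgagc
Tnfaip3: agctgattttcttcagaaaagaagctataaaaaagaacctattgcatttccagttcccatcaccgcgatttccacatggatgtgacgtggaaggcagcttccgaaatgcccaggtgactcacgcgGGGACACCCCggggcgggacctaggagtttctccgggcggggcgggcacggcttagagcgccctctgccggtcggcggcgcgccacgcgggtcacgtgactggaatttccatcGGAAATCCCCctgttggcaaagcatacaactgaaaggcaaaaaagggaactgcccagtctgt
Nfkb2: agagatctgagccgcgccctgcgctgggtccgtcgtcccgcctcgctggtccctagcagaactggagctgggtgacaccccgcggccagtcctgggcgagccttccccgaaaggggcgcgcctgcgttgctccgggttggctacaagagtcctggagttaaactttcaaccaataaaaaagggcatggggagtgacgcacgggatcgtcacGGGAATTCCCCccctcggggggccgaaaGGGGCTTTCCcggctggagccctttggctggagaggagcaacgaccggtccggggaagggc
The *Nfkbia* promoter (chr12:55492598-55492897, minus strand) held 1 match, GGAAATTCCC, which begins 29 bases before the start. In the *Tnfaip3* promoter (chr10:19015361-19015660, minus strand) matches began 125 and 12 bases before the start. The *Nfkb2* promoter (chr19:46304487-46304786, plus strand) held matches at 3 places, beginning 39, 38 and 11 bases before the start, of which the first 2 overlap. TATAAA, the TATA box motif, was found on either strand in 13.6% of all promoters and in those of *Nfkbia*, where it begins 19 bases after the start on the opposite strand, and *Tnfaip3*, where it begins 225 bases before the start. No consensus match lies in the listed windows of *Rela*, *Nfkbib*, *Chuk* or *Ikbkg*, which says only that those letters are not in these windows.

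Total counts were between 20004380 and 22569562 per mouse, and no pair of libraries of a group and batch agreed within counting noise. Counts of single members ran from 35 (the lowest for *Nfkb2*) to 888 (the highest for *Ikbkb*). All 10 markers of amygdala neurons were detected in each mouse, among them *Rspo2* of the basolateral nucleus (440 to 844 counts) and *Prkcd* of the central nucleus (458 to 1131). Summed markers of choroid plexus epithelium, a tissue outside the amygdala, ran from 24.8 to 4081 CPM (counts scaled to the size of the library) in Water mice, from 15.1 to 3709 in Acute mice and from 12.4 to 4390 in Chronic mice. In a bulk sample fewer cells of a type and less RNA per cell cannot be told apart.

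Levels were compared between members as CPM divided by the length of a gene's merged exons in kilobases. In Water mice the inhibitor *Nfkbia* had the highest level, with 8.55 ± 0.863 CPM per kilobase (SD, n = 10), followed by *Nfkbib* (7.04 ± 0.770), which encodes IkB-beta, and *Rela* (6.58 ± 0.499), which encodes the transactivating subunit p65. Next came the genes of the kinase complex, with 5.67 ± 0.704 for *Chuk* (the kinase IKK-alpha), 4.53 ± 0.298 for *Ikbkg* (the scaffold NEMO) and 2.0 ± 0.112 for *Ikbkb* (the kinase IKK-beta). The lowest levels were those of *Nfkb1* (1.14 ± 0.0939), which encodes the p105 precursor of p50, of *Tnfaip3* (0.927 ± 0.137), of *Nfkbiz* (0.694 ± 0.0763), which encodes the nuclear IkB-zeta, and of *Nfkb2* (0.582 ± 0.0827, n = 6), which encodes the p100 precursor of p52. Each of these members therefore had RNA in the amygdala of water-drinking mice, and the p65 gene stood above the genes of both precursors.

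Most neighbours in this order differed by more than the larger SD of the pair, and *Nfkbia* was above *Nfkbib* in 10 of 10 Water mice. *Nfkbib* and *Rela* did not differ beyond their spread, with a difference of 0.461 CPM per kilobase and *Nfkbib* higher in 6 of 10 mice. The order of the upper members rests on which length is used. With the longest transcript of each gene in place of its merged exons, *Ikbkb* moved from rank 6 to rank 3, with 7.88 ± 0.441 CPM per kilobase, and *Chuk* from 4 to 2, while *Nfkbia* stayed at rank 1, though by 0.491 CPM per kilobase over *Chuk* with a larger SD of 1.02 and in 7 of 10 mice, so not beyond the spread, and the 4 lowest members kept their ranks. The Acute and Chronic mice had the same order as the Water mice by merged exons.

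**Figure D1:**
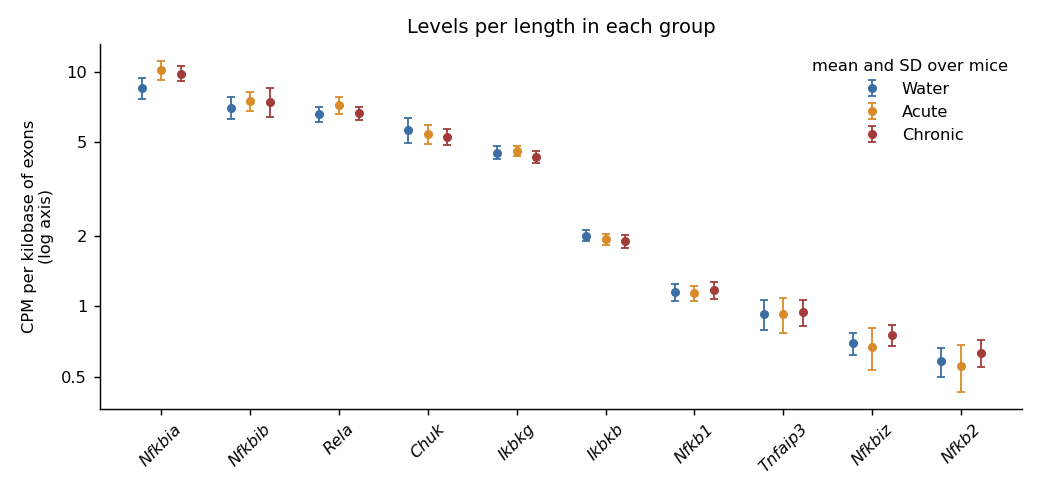
Level of each member in Water, Acute and Chronic mice, in CPM per kilobase of merged exons on a log axis, as the mean and SD over mice (9 or 10 per group, 5 or 6 for *Nfkb2*). *Nfkbia*, *Nfkbib* and *Rela* stand highest and *Nfkb2* lowest in each group, and *Nfkbia* is at 10.2 in Acute and 9.83 in Chronic against 8.55 in Water mice.

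The comparison of Acute with Water mice asked how a single bout of ethanol drinking changes these genes. *Nfkbia* had the largest difference, 1.2-fold higher in Acute mice, followed by *Rela* and *Nfkbib*, which were higher by less than 1.1-fold, and none of these passed the adjusted threshold in the edgeR test. Counts are given after scaling to a common library size (normalised counts), with batches apart. In the first batch *Nfkbia* had normalised counts of 262, 251, 298 and 325 in the Water mice and 373, 304, 349 and 352 in the Acute mice. In the second batch the 5 Acute mice had 319, 324, 404, 319 and 321, and the 6 Water mice ran from 261 to 332 with a median of 280.2. Groups overlapped in both batches through single mice, since 1 Water mouse of the first batch lay above the lowest Acute mouse and 1 Water mouse of the second batch lay above 4 of the 5 Acute mice.

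Every one of the 9 Acute mice was above the mean of the Water mice of its batch, where this mean, as in all such counts of mice, is that of log2 CPM. On the log2 scale the difference was 0.26 (SE 0.060, 95% interval 0.13 to 0.38), with an unadjusted p of 0.000185 by edgeR's quasi-likelihood test and an adjusted p of 0.19 over all genes. An exact two-sided permutation of the group labels within batches gave p = 0.00148 over 32340 regroupings. The study lists *Nfkbia* among its Acute genes from these same mice, and it was chosen with that known, so these p-values are not independent support. The difference was 0.28 (SE 0.10) in the first batch alone and 0.24 (SE 0.073) in the second. Acute mouse 3 of the second batch, at 404, stood apart from the other Acute mice of its batch, and without it the difference was 0.22 (SE 0.058, adjusted p = 0.37 by edgeR). When the batch was removed with ComBat-seq and the groups were compared with DESeq2, the route of the study's methods, the difference was 0.25 and passed the threshold with an adjusted p of 0.0364, as did 30 of all genes. By that route without Acute mouse 3 it was 0.20, with an adjusted p of 0.15.

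*Nfkbib* was higher in Acute mice by 0.10 on the log2 scale (SE 0.046, 95% interval 0.010 to 0.20, edgeR adjusted p = 0.50). In the first batch the Acute mice had normalised counts of 304, 309, 307 and 307 and the Water mice 274, 286, 302 and 277, so the groups did not overlap. In the second batch they did, with 359, 396, 351, 355 and 346 in Acute mice and 307 to 380 in Water mice. All 9 Acute mice were above the Water mean of their batch. The exact permutation p was 0.0101 over both batches and 0.0286, over 70 regroupings, in the first alone. The share of all genes whose groups do not overlap in the first batch alone was not counted. The span of *Nfkbib* overlaps those of *Sirt2* and *Ccer2* on the opposite strand. Whether their exons overlap was not checked, and the strand of the reads is not given, so shared reads are possible. Once the dependence on GC content and length was removed within each library, the difference was 0.074, and 58.8% of the bases of *Nfkbib* are G or C, against a median of 49.4% over the genes tested.

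*Rela* had normalised counts of 546, 452, 469 and 440 in the Acute mice of the first batch and of 439, 383, 450 and 447 in the Water mice. In the second batch the Acute mice had 442, 434, 463, 410 and 465, and the Water mice ran from 376 to 457 with a median of 409. The groups overlapped in both batches, and 8 of 9 Acute mice were above the Water mean of their batch. The difference was 0.12 (SE 0.045, 95% interval 0.032 to 0.22), with an edgeR adjusted p of 0.45 and an exact permutation p of 0.0191. Without the Acute mouse at 546 the difference was 0.096 (SE 0.043).

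**Figure D2:**
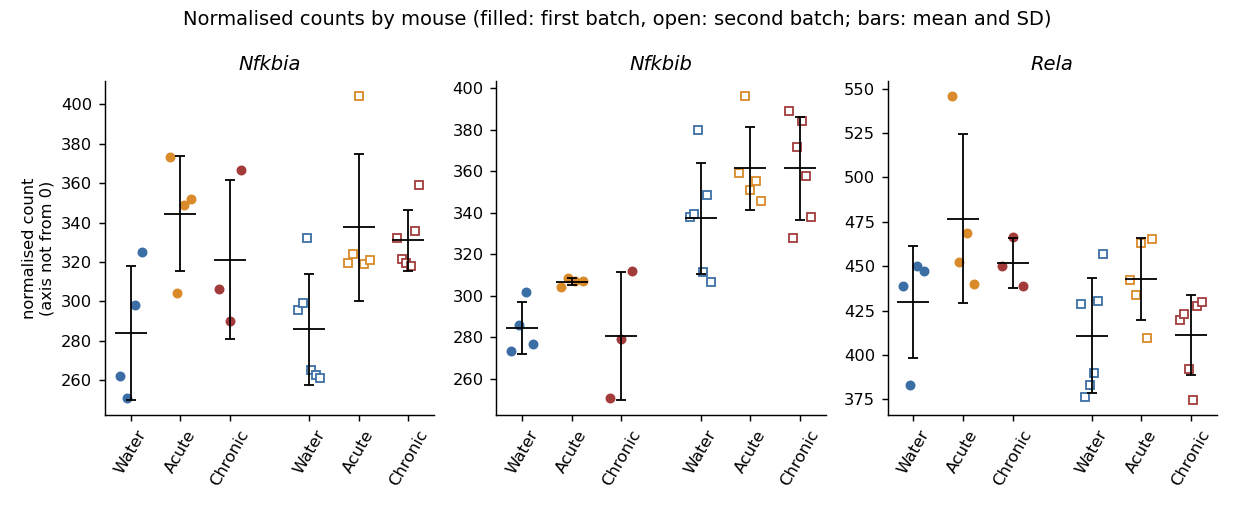
Normalised counts of *Nfkbia*, *Nfkbib* and *Rela* in each mouse by group, with filled circles for the first batch, open squares for the second, bars for the mean and SD, and axes that do not begin at 0. For *Nfkbia* and *Nfkbib* each of the 9 Acute mice lies above the Water mean of its batch, and 1 Acute mouse of the second batch stands apart for *Nfkbia* at 404.

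At the adjusted threshold of 0.05 edgeR called 0 of the 9 shared members in Acute against Water, where it called 0 of all 16266 genes tested (0%). By limma-voom, which called 3 of all genes, and by DESeq2 with a batch term, which called 8, 0 members were called as well. ComBat-seq with DESeq2 called 1 member, *Nfkbia*, and 30 of all genes. At an unadjusted p under 0.05 there were 3 of 9 members, all higher in Acute mice, where 9.52% of all genes tested passed that bar in either direction, 5.07% higher and 4.45% lower. In the second batch alone 1 member, *Nfkbia*, was below it, where 5.04% of all genes were. The count of members under that bar was 1 to 3 over the other settings and 2 to 3 without single mice. The members' median log2 difference was 0.0012 and that of all genes tested was 0.0011. With every mouse of a group on 1 side of the Water mean of its batch, as *Nfkbia* and *Nfkbib* had it, there were 2 of 9 members and 3.33% of all genes. Groups that did not overlap in either batch were found for 0 of 9 members and for 0.0246% of all genes.

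The other members differed little between Acute and Water mice. *Nfkb1* had 283 ± 21.9 normalised counts (SD, n = 9) in Acute mice against 285.6 ± 23.4 (n = 10) in Water mice, with a log2 difference of -0.013 (95% interval -0.13 to 0.10). Its span overlaps *Gm43430* on the same strand. *Tnfaip3* had 138.3 ± 23.8 and 138.7 ± 20.5, a difference of 0.0012 (-0.18 to 0.18), so the interval holds changes in either direction of up to 0.18. Among the genes of the kinase complex, *Chuk* was at -0.067 (-0.17 to 0.034), *Ikbkb* at -0.055 (-0.13 to 0.022) and *Ikbkg* at 0.015 (-0.054 to 0.085). *Nfkbiz*, which ran from 53.2 to 101 normalised counts in Acute mice, was at -0.050 (-0.25 to 0.15). For *Nfkb2* in the second batch the Acute mice had 35.1, 64.7, 52.8, 60.7 and 45.8 normalised counts and the Water mice 46.5 to 67.9, and the difference was -0.065 with a wide interval of -0.39 to 0.26.

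**Figure D3:**
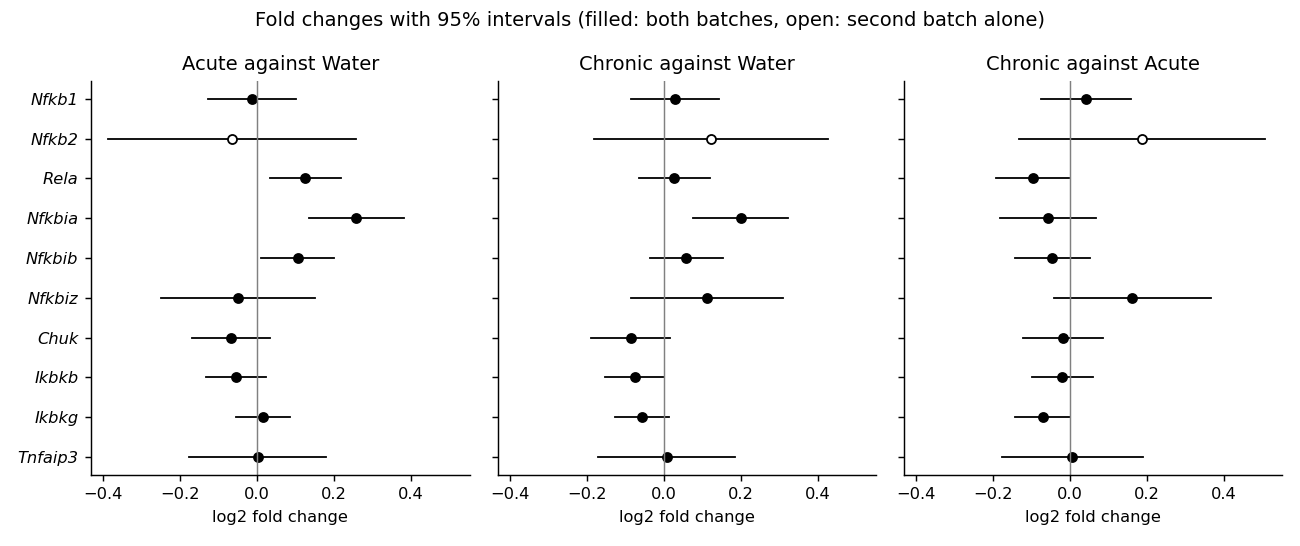
Log2 fold change of each member with its 95% interval in 3 comparisons, filled for the fit over both batches and open for *Nfkb2*, which was fitted in the second batch alone. *Nfkbia* lies at 0.26 in Acute and 0.20 in Chronic mice against Water, with intervals above 0, and most other intervals cross 0.

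The comparison of Chronic with Water mice asked the same of intermittent drinking over 28 days, against the same Water mice. *Nfkbia* was again the member with the largest difference, 1.1-fold higher in Chronic mice. Its normalised counts in the first batch were 306, 290 and 367 in the Chronic mice, and in the second batch the 6 Chronic mice ran from 318 to 359 with a median of 327. All 6 of these lay above 5 of the 6 Water mice of that batch, the highest Water mouse being at 332, and the 3 of the first batch lay among their Water mice apart from the 1 at 367. All 9 Chronic mice were above the Water mean of their batch. The log2 difference was 0.20 (SE 0.060, 95% interval 0.077 to 0.32), with an unadjusted p of 0.00246 and an adjusted p of 0.24 by edgeR and an exact permutation p of 0.00529. It was 0.18 (SE 0.11) in the first batch alone and 0.21 (SE 0.070) in the second.

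The genes of the IkB kinase complex were at lower values in Chronic than in Water mice, and none passed the test. *Ikbkb* was at -0.075 (SE 0.038, 95% interval -0.15 to 0.0021), *Chuk* at -0.086 (SE 0.050, -0.19 to 0.016) and *Ikbkg* at -0.056 (SE 0.034, -0.13 to 0.014), and for each of them 8 of 9 Chronic mice were below the Water mean of their batch. For *Ikbkb* that count includes 2 mice of the first batch close to the mean, at 801 and 799.8 normalised counts against a Water mean of 804. For *Chuk* the Chronic mouse counted as higher is likewise close to it, at 558.7 in the second batch against a Water mean of 559.5 normalised counts. Their adjusted p-values by edgeR were 0.49, 0.56 and 0.58. Normalised counts in the second batch ran from 671.5 to 784 for *Ikbkb* in Chronic and from 729.8 to 828.8 in Water mice, and for *Chuk* from 497 to 559 and from 503 to 607, so the groups overlapped. Once GC and length trends were removed, *Ikbkg* was at 0.0024, *Chuk* at -0.055 and *Ikbkb* at -0.076. On the opposite strand the span of *Ikbkg* overlaps *G6pdx* and that of *Ikbkb* overlaps *Gm15346*.

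The least abundant members, *Nfkbiz* and *Nfkb2*, had wide intervals. *Nfkbiz* had 78.1 ± 8.13 normalised counts (SD, n = 9) in Chronic mice against 72.0 ± 7.93 (n = 10) in Water mice, with a log2 difference of 0.11 (-0.086 to 0.31). *Nfkb2* had 59.0 ± 7.75 in the 6 Chronic and 54.2 ± 7.70 in the 6 Water mice of the second batch, a difference of 0.12 (-0.18 to 0.43). Its span overlaps *Psd* and *AC114539.1* on the opposite strand. *Rela* was at 0.027 (-0.065 to 0.12), and at -0.026 with GC and length trends removed. *Nfkbib* was at 0.058 (-0.036 to 0.15), *Nfkb1* at 0.028 (-0.085 to 0.14) and *Tnfaip3* at 0.0074 (-0.17 to 0.19).

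In Chronic against Water, edgeR called 0 of 9 members and 0.0184% of all genes tested, 3 of 16266. By limma-voom, which called 2 of all genes, and by DESeq2, which called 36 with a batch term and 98 after ComBat-seq, 0 members were called as well. At an unadjusted p under 0.05 there was 1 of 9 members, *Nfkbia*, where 10.5% of all genes passed that bar, 4.81% higher and 5.65% lower. Every Chronic mouse was on 1 side of the Water mean of its batch for 1 of 9 members, again *Nfkbia*, and for 3.23% of all genes, while groups apart in both batches were seen for 0 of 9 members and 0.0246% of all genes. The count of members at an unadjusted p under 0.05 was 3 without Water mouse 42. It was 2 without Water mouse 3 or 5 or Chronic mouse 2, 6, 37 or 38, each left out singly, and with 2 surrogate variables, and it was 0 in the first batch alone. The members' median log2 difference was 0.027, against 0.0022 for all genes tested. For *Nfkb2*, fitted in the second batch alone, edgeR called 0% of 16435 genes in the Acute and 0.0243% in the Chronic comparison, and *Nfkb2* was not called in either. Its unadjusted p was 0.68 in Acute and 0.41 in Chronic mice by edgeR, where 5.04% and 13.5% of those genes had one under 0.05.

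**Figure D4:**
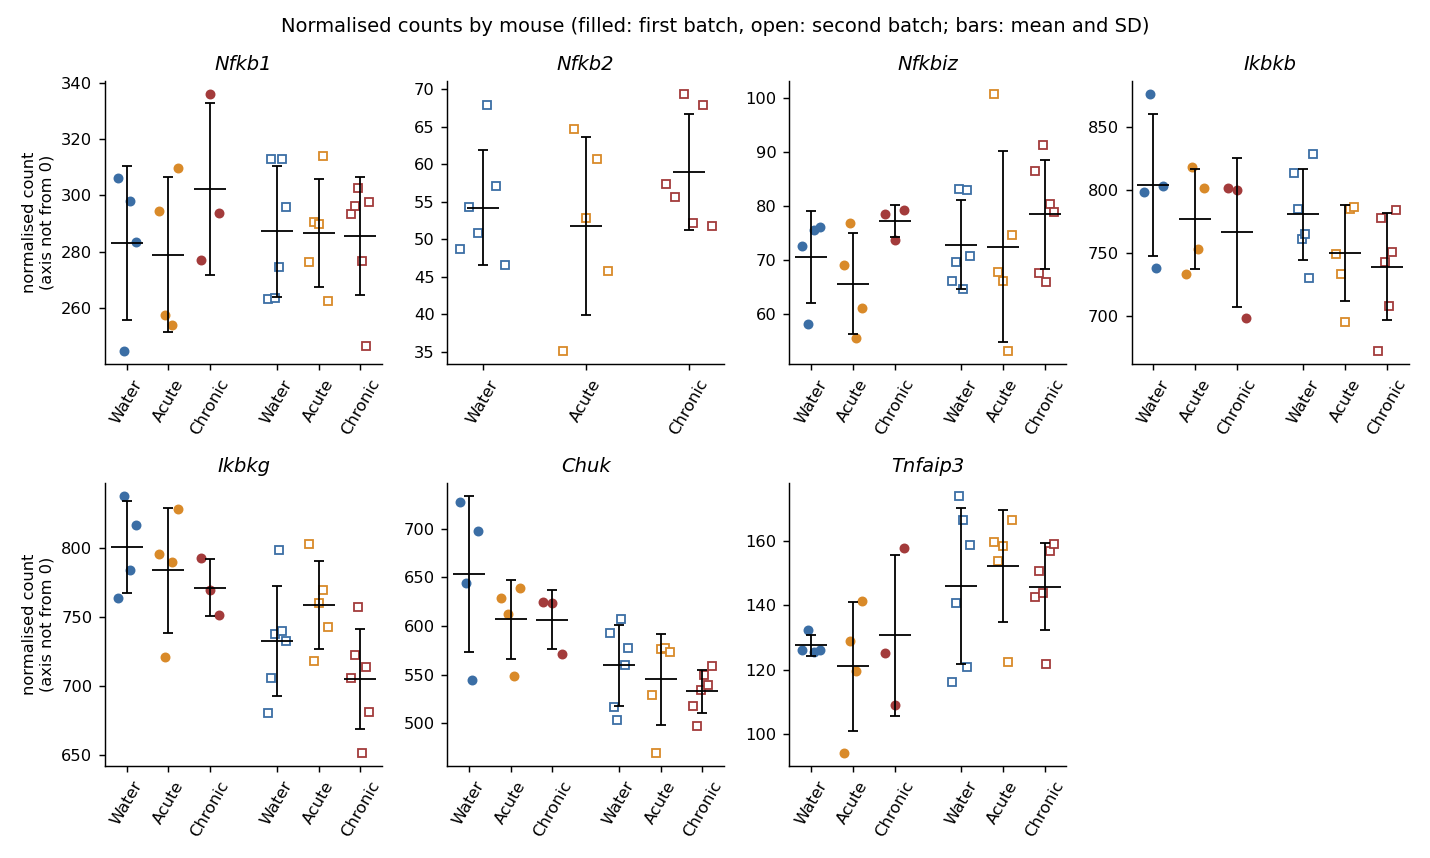
Normalised counts of the other 7 members in each mouse by group, with filled circles for the first batch, open squares for the second, bars for the mean and SD, and axes that do not begin at 0. The drinking groups overlap with Water in each panel, and *Chuk* and *Ikbkg* are lower in the second batch than in the first, whichever the group.

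Chronic and Acute mice were compared to ask whether repeated drinking differs from a single bout. The study reports that Chronic mice drank more ethanol than Acute mice in the last session before tissue was taken. The comparison therefore cannot separate repeated drinking from a larger last intake. *Rela* was lower in Chronic mice, with a log2 difference of -0.097 (SE 0.046, 95% interval -0.19 to -0.0027), and 9 of 9 Chronic mice were below the Acute mean of their batch. Its normalised counts in the first batch were 450, 466.5 and 439 in the Chronic mice against 440 to 546 in the Acute mice, and in the second batch 375 to 429.7 against 410 to 465, so the groups overlapped. The adjusted p by edgeR was 0.998, and the exact permutation p was 0.0396. Without Acute mouse 33, the one at 546, the difference was -0.070. Chronic mouse 38, at 466.5, lies above the mean of the other Acute mice of its batch, at 452, 469 and 440, so the 9 of 9 rests on mouse 33. Mouse 33 also had the highest summed oligodendrocyte and choroid plexus markers of its group and batch, 3105 and 3709 CPM, whose part was not tested. *Nfkbia* was at -0.058 (-0.18 to 0.068), an interval that holds 0 and a change of 0.18 in the lower direction. *Ikbkg* was at -0.072 (-0.14 to 0.00029), with 8 of 9 Chronic mice below the Acute mean of their batch. *Nfkb2* was at 0.19 (-0.13 to 0.51) in the second batch, with 6 of 6 Chronic mice above the Acute mean of log2 CPM, the lowest of them, at 51.7 normalised counts, lying next to the Acute mean of 51.8, and an unadjusted p of 0.24 by edgeR, where 4.02% of genes had one under 0.05. Across the members 0 of 9 were called by edgeR, as was 0% of all genes, and 1 of 9 had an unadjusted p under 0.05, where 4.44% of all genes did, 1.95% higher and 2.50% lower. Every Chronic mouse was on 1 side of the Acute mean of its batch for 1 of 9 members, *Rela*, and for 1.32% of all genes. By limma-voom and by DESeq2 with a batch term the count of members at an unadjusted p under 0.05 was 0. It was also 0 without Water mouse 5 or 40, Acute mouse 2, 3, 5 or 33, or Chronic mouse 2, 4 or 39, and 2 without Water mouse 1, 4 or 41 or Acute mouse 34.

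Effects were compared between the batches with an interaction term, since the labels put the mice in 2 batches. For 9 members and 2 comparisons with Water, edgeR called 0 differences, against 0% of all genes in Acute and 0.00615% in Chronic mice, and 0 of 9 members had an unadjusted p under 0.05, as 4.13% and 6.15% of all genes did. The Acute effect on *Nfkbia* was 0.038 lower in the second batch than in the first by the interaction term (difference -0.038, SE 0.13), and its Chronic effect was 0.035 higher (SE 0.13). The largest difference was that of *Tnfaip3* in Acute mice, 0.13 (SE 0.18), and its interval holds 0.

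Other genes of the pathway, listed by role, were read in the same fits. No gene of these lists was called by edgeR in any comparison, so the following counts are at an unadjusted p under 0.05. Of the other Rel subunits and IkB genes, 4 of 5 were tested and 0 passed against Water, where 9.52% of all genes passed in Acute and 10.5% in Chronic mice. *Bcl3* was below the count filter with a mean of 6.89. *Nfkbid*, which encodes a nuclear IkB protein, was at 0.17 (SE 0.11) in Acute and 0.14 (SE 0.11) in Chronic mice, *Nfkbie* at 0.12 (SE 0.16) and 0.014 (SE 0.16), and *Relb*, a subunit of the noncanonical arm, at 0.015 (SE 0.097) and 0.065 (SE 0.097). *Rel*, the c-Rel gene, was at -0.034 (SE 0.098) in Acute and -0.19 (SE 0.099) in Chronic mice.

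Among ligands and receptors, 12 of 19 were tested and 0 passed in either comparison with Water, where 9.52% of all genes passed in Acute and 10.5% in Chronic mice. *Tnfrsf11a*, the receptor RANK, was at 0.18 (SE 0.11) in Acute and 0.15 (SE 0.11) in Chronic mice, and *Tlr3*, a receptor for double-stranded RNA, at -0.071 (SE 0.050) and -0.044 (SE 0.050). *Il1a*, which encodes interleukin-1 alpha, was at 0.28 (SE 0.21) in Acute and 0.038 (SE 0.22) in Chronic mice, at a mean of 15.9 counts.

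Adaptors and kinases upstream of the IkB kinases had 5 of 28 genes with an unadjusted p under 0.05 in Acute mice, 3 higher and 2 lower, and 6 of 28 in Chronic mice, 5 higher and 1 lower, where 9.52% and 10.5% of all genes passed. *Myd88*, the adaptor of Toll-like and interleukin-1 receptors, was at 0.16 (SE 0.074) in Acute and 0.23 (SE 0.073) in Chronic mice, where 9 of 9 mice were above the Water mean of their batch. *Tradd*, the adaptor of the tumour necrosis factor receptor, was at 0.28 (SE 0.099) and 0.23 (SE 0.099), with 9 of 9 Acute and 8 of 9 Chronic mice higher. *Map3k14*, the NIK kinase of the noncanonical arm, was at -0.056 (SE 0.095) in Acute and -0.28 (SE 0.096) in Chronic mice, with 7 of 9 Chronic mice lower. Their smallest adjusted p by edgeR was 0.24, that of *Myd88* in Chronic mice. The median of this list was -0.027 in Acute and -0.029 in Chronic mice, against 0.0011 and 0.0022 for all genes tested.

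Negative regulators other than the members had 0 of 12 genes under that bar in Acute and 2 of 12 in Chronic mice, both lower, where 5.65% of all genes passed and were lower in Chronic mice. *Cyld*, a deubiquitinase that removes the chains on which the kinase complex assembles, was at -0.044 (SE 0.043) in Acute and -0.14 (SE 0.043) in Chronic mice, where 8 of 9 mice were lower (adjusted p = 0.24 by edgeR). *Itch*, a ubiquitin ligase that works with A20, was at -0.045 (SE 0.036) and -0.076 (SE 0.036), and *Rnf11*, another partner of A20, at 0.042 (SE 0.027) and 0.041 (SE 0.027).

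Known target genes of NF-kB, the members left out, had 0 of 16 tested genes under the bar in Acute and 1 of 16 in Chronic mice, where 10.5% of all genes passed, and 10 more were below the count filter. Their median difference was 0.0039 in Acute and 0.081 in Chronic mice, where 13 of 16 were at higher values, as were 8295 of all 16266 genes with a median of 0.0022. *Ier3*, an early response gene, was at 0.15 (SE 0.090) in Acute and 0.19 (SE 0.090) in Chronic mice, *Zfp36*, which encodes an RNA-destabilising protein, at 0.080 (SE 0.088) and 0.18 (SE 0.087), and *Nos2*, the inducible nitric oxide synthase, at 0.23 (SE 0.20) and 0.34 (SE 0.20). Because these 2 comparisons share the Water mice, their values are not independent of each other.

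**Figure D5:**
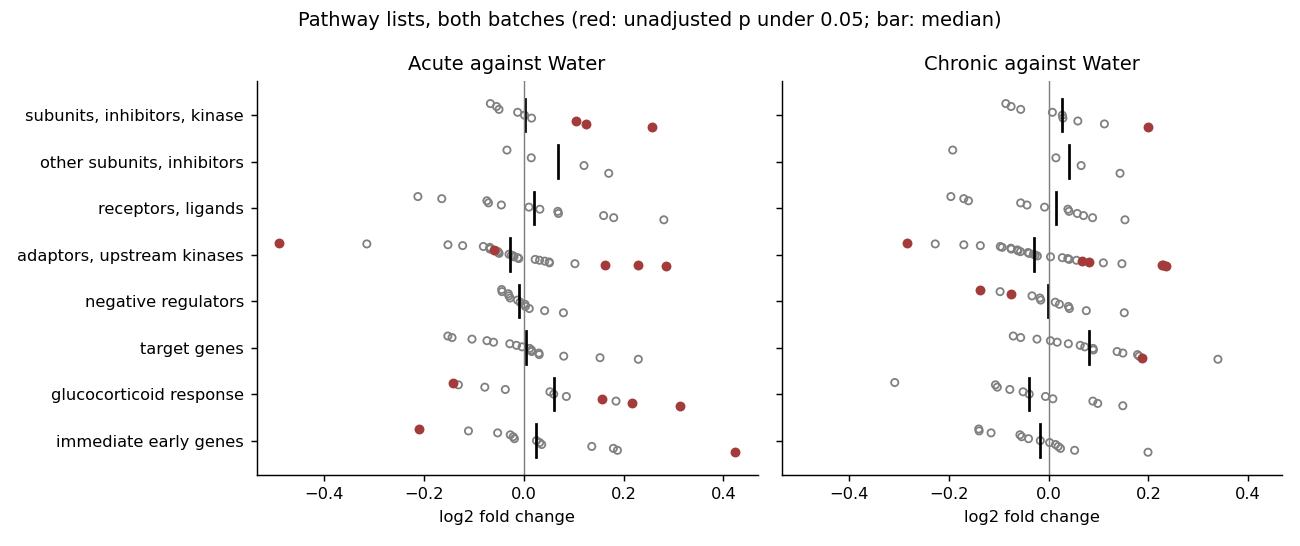
Log2 fold change of each tested gene of 8 lists in Acute and Chronic mice against Water, in red where the unadjusted p was under 0.05 and grey where not, with a bar for the median of the list. List medians stay between -0.039 and 0.081, and no gene passed the adjusted threshold.

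*Nfkbia* is also known to be induced by glucocorticoid hormone, so genes known to respond to that hormone, and immediate early genes, were read beside it. Of 11 glucocorticoid genes tested, 4 had an unadjusted p under 0.05 in Acute mice, 3 higher and 1 lower, and 0 in Chronic mice, where 9.52% and 10.5% of all genes passed. *Tsc22d3*, which encodes the protein GILZ, was at 0.16 (SE 0.060) in Acute and 0.089 (SE 0.061) in Chronic mice, and *Cdkn1a*, a cell cycle inhibitor, at 0.22 (SE 0.077) and 0.098 (SE 0.077). *Per1*, a clock gene that the hormone also induces, was at -0.14 (SE 0.052) in Acute and -0.11 (SE 0.052) in Chronic mice, and 9 of 9 Acute mice were lower. Of 13 immediate early genes 2 passed that bar in Acute and 0 in Chronic mice, against the same shares of all genes. *Btg2* was at 0.42 (SE 0.11) in Acute and 0.20 (SE 0.11) in Chronic mice, *Fos* at 0.19 (SE 0.097) and 0.052 (SE 0.097), and *Nr4a3* at -0.21 (SE 0.089) and -0.14 (SE 0.089). The part of these genes in the *Nfkbia* values was not tested.

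Cell type markers were read for the same reason. Summed CPM of 10 microglial markers ran from 349.5 to 409 in Water mice, from 360.1 to 413 in Acute mice and from 362 to 402 in Chronic mice, and that of 10 endothelial markers from 178 to 216, 188 to 214 and 191 to 212, so these groups overlapped. For 10 astrocyte markers the ranges were 2505 to 2936, 2413 to 2862 and 2388 to 2858. Oligodendrocyte markers spanned 1364 to 3368 in Water mice, 1788 to 3353 in Acute mice and 1968 to 3252 in Chronic mice, and 8 of 9 were at higher values both in Acute mice, with a median difference of 0.15, and in Chronic mice, with a median of 0.083, none under an unadjusted p of 0.05. Their sums differed by batch. In the first batch they ran from 1364 to 2161 in Water, 1788 to 3105 in Acute and 1968 to 2493 in Chronic mice. In the second they ran from 2614 to 3368, 2429 to 3353 and 2310 to 3252, so Water mice reached lowest in the first batch only. Blood cell markers spanned 86.8 to 199.9, 91.0 to 155 and 98.9 to 146 in the 3 groups. Neuronal markers spanned 6038 to 6850, 6097 to 6858 and 6194 to 6788. Markers of amygdala neurons were at higher values in Acute mice for 9 of 10 genes, with a median of 0.16 and none under that bar, and in Chronic mice also for 9 of 10, with a median of 0.062 and 1 gene, *Cartpt*, under it and higher. Under the same bar in Acute mice, all at higher values, were 2 of 10 neuronal markers (*Tubb3* at 0.084 and *Gad1* at 0.18), 2 of 10 astrocyte markers (*Fgfr3* at 0.098 and *Aldh1l1* at 0.14), the microglial *Csf1r* (0.070) and the endothelial *Ly6c1* (0.12), where 5.07% of all genes passed and were higher. The medians of these 4 lists in Acute mice were 0.040, -0.0039, 0.0075 and 0.015, with 4 of 10 astrocyte and 6 of 10 microglial markers at higher values. In Chronic mice *Tubb3* (0.081), *Fgfr3* (0.078), *Ly6c1* (0.13) and *Cldn5* (0.13) were under it at higher values and *Slc1a2* (-0.090) at a lower one, where 10.5% of all genes passed. Of 10 endothelial markers 5 were at higher and 5 at lower values there, with a median of -0.016. These markers are named after their values were seen, none was called by edgeR, and their part in the members' values was not tested.

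Variation from mouse to mouse was compared between members after the means of each group and batch were taken off. How library preparation was divided over the batches is not given in the sources used here, so its part in these values is not known. Over 28 mice, Pearson's r between pairs of members ran from -0.585 for *Nfkbib* and *Ikbkb* to 0.341 for *Ikbkb* and *Chuk*. *Nfkbib* and *Chuk* were at -0.561 and *Nfkbia* and *Ikbkb* at -0.478, the 3 lowest of 36 pairs. Other pairs of an inhibitor with a gene of the kinase complex were nearer to 0, between -0.284 for *Nfkbib* and *Ikbkg* and 0.0703 for *Nfkbiz* and *Ikbkg*. The bases of *Nfkbib* are 58.8% G or C, those of *Nfkbia* 52.9%, those of *Ikbkb* 51.2% and those of *Chuk* 41.3%, and the part of base composition in these values was not tested. *Nfkbia* and *Rela* were at 0.181, and *Nfkb1* and *Nfkbia* at 0.017.

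The 5 genes whose pattern was most like that of *Nfkbia* on this scale were *Rexo2* (Pearson's r 0.799, Spearman's rho 0.784), *Ppa2* (0.756 and 0.708), *Sgk1* (0.703 and 0.662), *Stx7* (0.693 and 0.633) and *Thap6* (0.685 and 0.656), over 28 mice. *Sgk1* is 1 of the glucocorticoid genes, and it was at 0.18 (SE 0.093) in Acute and -0.078 (SE 0.093) in Chronic mice. Without the 2 mice farthest from the median of *Nfkbia*, Pearson's r was 0.765 for *Rexo2*, 0.633 for *Ppa2*, 0.755 for *Sgk1*, 0.647 for *Stx7* and 0.566 for *Thap6*. For *Nfkb1* they were *Flicr* (0.705), *Togaram2* (0.677), *Irf2bp1* (0.673), *Zfp219* (0.671) and *Il27ra* (0.664), of which *Flicr* and *Il27ra* are at means of 15.3 and 11.6 counts. Without the 2 mice farthest from the median of *Nfkb1* these ran from 0.564 for *Irf2bp1* to 0.702 for *Il27ra*. These genes were picked as the highest of all tested genes, so their r is a description.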

How the data were processed

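RNA-seq libraries of amygdala tissue from 28 mice were used. Per the labels and the study's methods, the authors checked reads with FastQC (version 0.11.8), quantified them with Salmon (version 0.14.1) on GRCm38 and summed transcripts to GENCODE M21 genes with tximport. The authors deposited estimated counts as whole numbers, 1 table per batch, before their ComBat-seq batch correction. Whether the counting used strand is not given in the sources used here. Total counts were 20004380 to 22569562 per mouse, and no column of a sample was left unused.

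Genes in both tables with a mean of at least 10 counts were kept, scaled by TMM and tested with edgeR (version 4.0.16, R 4.3.3) by the quasi-likelihood test with Benjamini-Hochberg adjustment over all 16266 genes and a threshold of 0.05. The model held the 3 groups and batch. *Nfkb2* was tested within the second batch, over 16435 genes. Exact two-sided permutations moved group labels within batches. Per the study's methods, mice were group housed on arrival and housed singly while drinking. Nothing in the labels says that mice of a group came from separate litters or arrival cages, so p-values measure the spread between these mice.

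The members and the gene lists were chosen with earlier results of these data known. All Rel and IkB genes were named. From each of the other pathway lists and the glucocorticoid and immediate early lists, but not from the cell type markers, the 3 genes with the smallest unadjusted p in either comparison with Water were named, together with the 5 genes whose log2 CPM had the highest Pearson r with *Nfkbia* or with *Nfkb1*, and the text says where others were named after their values were seen. Alternatives were DESeq2 (version 1.42.0), ComBat-seq and 2 surrogate variables (sva version 3.50.0), limma-voom (limma version 3.58.1), other scalings and filters, each batch alone, the compared groups alone, offsets for GC content and length, a replicate block and each mouse left out in turn. Counts over all genes, counts at unadjusted p, the alternatives for the second batch alone and ComBat-seq with DESeq2 without 1 mouse were chosen after seeing the data. The statistics were tested on simulated data. In the second batch the groups share replicate numbers, but 16 same-numbered pairs had correlations of -0.346 to 0.338 in their deviations from the group means, so the numbers were not taken as pairs.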

Additional observations from a re-analysis of the deposited data

Results flagged for a closer look

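Of 48 groups of 4 to 6 mice, each a member in 1 group and batch, 4 held a mouse far from the others by Dixon's criterion, where chance gives about 1 in 20. For *Nfkbia*, Acute mouse 3 of the second batch was the highest of its group at 404.2 normalised counts, with the next mouse at 324. Without it the Acute difference was 0.22 in place of 0.26. For *Nfkbib*, Acute mouse 2 of the second batch was the highest at 396.1, with the next at 359, and without it the Acute difference was 0.087 (unadjusted p = 0.079 by edgeR) in place of 0.105. Water mouse 41 of the first batch was the lowest of its group for *Rela*, at 383.1 with the next at 439, and without it the Acute difference was 0.10. The same mouse was the highest of its group for *Tnfaip3*, at 132.4 with the next at 126.2, and without it the Acute difference was 0.010.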

How the results depend on the processing

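Of 1254 comparisons of a member's log2 difference with its value under another setting, 1198 kept their direction and 1 passed to the other side of the threshold. The exception was *Nfkbia* in Acute mice by ComBat-seq and DESeq2, which called 1 member. Its adjusted p ran from 0.0364 to 0.904 over the other settings and from 0.136 to 0.405 when single mice were left out. In Chronic mice it ran from 0.0711 to 0.9999 and from 0.147 to 0.46. The cause was not tested. Leaving out single mice called 0 members in each comparison.

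The count of all genes called in Acute against Water, 0 by edgeR, was 8 by DESeq2, 1 by DESeq2 without independent filtering, 30 by ComBat-seq and DESeq2, 3 by limma-voom, 1 without the count filter, 3 with 2 surrogate variables and 0 to 2 without single mice. In Chronic against Water, 3 by edgeR, it was 36, 18 and 98 by the same 3 DESeq2 routes, 5 by ComBat-seq and edgeR, 0 in the first batch, 1 with GC and length offsets, 1 with those offsets and the replicate block, 8 with 2 surrogate variables and 2 to 6 without single mice. In Chronic against Acute it was 1 by limma-voom and 1 without the count filter.

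Directions turned for members close to 0. In Acute mice *Tnfaip3* was at -0.0012 by DESeq2 with or without independent filtering and with RLE scaling, -0.0025 and -0.0030 after ComBat-seq with DESeq2 and edgeR, -0.078 in the first batch and -0.033 to 0.047 without single mice. *Ikbkg* was at -0.033 in the first batch. *Nfkb1* was at 0.0020 with GC and length offsets, 0.0053 with the block added and -0.038 to 0.0067 without single mice, and *Nfkb2* at -0.16 to 0.049 without single mice. In Chronic mice *Nfkbib* was at -0.021 in the first batch. In the second *Nfkb1* was at -0.0089 and *Tnfaip3* at -0.0040, and without single mice they were at -0.0028 to 0.055 and -0.045 to 0.039. With GC and length offsets *Rela* was at -0.026 and *Ikbkg* at 0.0024, and with the block added at -0.025 and 0.0017. In Chronic against Acute, *Chuk* was at 0.0012 by limma-voom, 0.00041 in the first batch and 0.00051 with GC and length offsets. *Tnfaip3* was there at -0.026 by limma-voom, -0.064 in the second batch, -0.0060 with the replicate block, -0.023 with 2 surrogate variables and -0.048 to 0.037 without single mice, and *Nfkb1* at -0.0066 in the second batch. The cause was not tested.

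With the replicate block *Nfkbia* in Acute mice was at 0.26 (adjusted p = 0.33 by edgeR), and the block changed no call of a member. Of 17 mice in the second batch, 1 correlated best with a mouse of its own number. Counts of the least abundant member, *Nfkb2*, were 35 to 71, and its interval in Acute mice reached from -0.39 to 0.26.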

Other observations

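Among the adaptors and kinases, genes outside the naming rule also had an unadjusted p under 0.05, and they are named here after their values were seen. *Birc3*, which encodes the ubiquitin ligase cIAP2 and is also a target of NF-kB, was at 0.23 (SE 0.11) in Acute and 0.24 (SE 0.11) in Chronic mice, with 8 and 7 of 9 mice higher. *Sharpin* and *Rbck1*, which encode subunits of the linear ubiquitin ligase complex that builds the platform for the IkB kinases, were at 0.080 (SE 0.036) and 0.067 (SE 0.026) in Chronic mice, with 9 and 8 of 9 mice higher. *Traf1* was at -0.49 (SE 0.19) in Acute and 0.15 (SE 0.19) in Chronic mice at a mean of 16.96 counts, and *Tab2* was at -0.059 (SE 0.026) in Acute mice. None was called by edgeR, with adjusted p-values of 0.34 and above. *Sult1a1*, of the glucocorticoid list, was at 0.31 (SE 0.14) in Acute and -0.10 (SE 0.14) in Chronic mice.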
